A study of Mus musculus with 6 samples.

Results

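Somites, the paired blocks of mesoderm that form the vertebrae and trunk muscle, are cut from the presomitic mesoderm by a small set of transcription factors. The 8 genes of that set taken here were Mesp1, Mesp2, Ripply2, Tcf15, Meox1, Foxc1, Foxc2 and Pax3. Every probe set (a group of short DNA probes on the array that reads 1 transcript) annotated with 1 of these symbols was taken, which gave 11 of the 45037 probe sets. Foxc1 had 2 probe sets, Pax3 had 3 and each other gene had 1. The tissue was the node with the primitive streak, from which the mouse embryo's posterior mesoderm arises, taken at embryonic days 7.75 to 8 with 0 to 2 somites. The groups were wild-type embryos and Wnt3a null embryos, which lack a secreted Wnt ligand, and both had a mixed C57BL/6 and 129/Sv strain background. Each group had 3 pools, each pool held amplified RNA of 3 embryos of 1 genotype matched for stage, and each pool was read on 1 Affymetrix array. The comparison asks what changes without Wnt3a before the mutant embryos look abnormal.

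In the presomitic mesoderm, Wnt and FGF signals keep cells immature near the tail end, and oscillating Notch signalling sets the timing of segments. Where those signals fall, Tbx6 and Notch activity switch on Mesp2, Mesp2 switches on Ripply2, and Ripply2 ends the activity of Tbx6 and Mesp2, which fixes the next boundary. Foxc1 and Foxc2 also act in segmentation of the paraxial mesoderm. Tcf15 turns the segment into an epithelial ball, and Meox1 and Pax3 act as it matures into sclerotome and dermomyotome.

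Signals are on the linear scale of the deposited table, and differences are null minus wild type on the log2 scale. Median signals of the 6 arrays ran from 73.6 to 86.1. The Wnt3a probe set read 761 to 1009 in the null group and 864 to 1058 in the wild-type group, and it does not check the labels, since which stretch of Wnt3a the null allele changes is not stated there. Gapdh probes at the 3' end read 2.09 to 2.39 times those at the 5' end in null pools and 2.51 to 3.00 times in wild type, a ratio that climbs as RNA is degraded or amplified short. Wild-type pool 1 stood apart in its Y-linked Eif2s3y signal (1417210_at, 4.31, against 1053 or more in the other 5 pools). The X-linked Xist (1427262_at) read 5098 in null pool 1 and 5805 in wild-type pool 1, against 992 to 1068 in the other pools. The part of the Gapdh ratio or of these genes in the differences below was not tested. Of the streak and node genes, Tbx6 (values below) and Nodal were present, Nodal at 216 ± 70.0 in the null group and 479 ± 233 in the wild-type group (SD, n = 3 each). Foxj1, Nog and Dand5, 3 of 8 node and notochord genes read, lay below the median signal. Visceral endoderm RNA was present in both groups, with Ttr at 19265 in null and 19828 in wild-type pools on average. It was uneven among wild-type pools. Wild-type pool 2 was the highest of the 6 pools for Ttr (26487), Afp (10428), Apoa1 (9160) and Hnf4a (1047). Wild-type pools 1 and 3 read 13561 and 19435 for Ttr and 2935 and 4434 for Afp. The part of this tissue in the differences below was not tested.

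By the brightest probe set of each of the 8 genes, the 5 largest differences were all toward a higher signal in null pools, without passing the test. How many of all genes differ by as much was not counted. Ripply2 was 3.60-fold, Mesp2 2.38-fold, Tcf15 1.72-fold, Meox1 1.53-fold and Foxc2 1.36-fold higher in value, whereas Mesp1, Foxc1 and the brightest Pax3 probe set differed by 0.14 or less on the log2 scale. The mean log2 signal was higher in null pools for 10 of the 11 probe sets, against 51.7% of all probe sets, and the median difference was 0.44, against 0.01 for all. The members were chosen with earlier results of these data known, so these values are a description only. Foxc1 and Pax3 also enter with more than 1 probe set each. No member passed the test over all probe sets. The limma test called 0 of 45037 probe sets (0%), with 2273 (5.05%) at an unadjusted p under 0.05, and 3 of the 11 member probe sets, those of Ripply2, Mesp2 and Tcf15, were among the latter. All 3 were higher in null, as were 2.84% of all probe sets at that unadjusted p. The smallest adjusted p of a member was 0.862 (limma, Ripply2). When both pools of replicate number 2 are left out, the mean is higher in 6 of 11 probe sets, near the 53.1% of all probe sets under that setting. Arrays of whole tissue cannot tell more cells of a type from more RNA per cell.

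**Figure D1:**
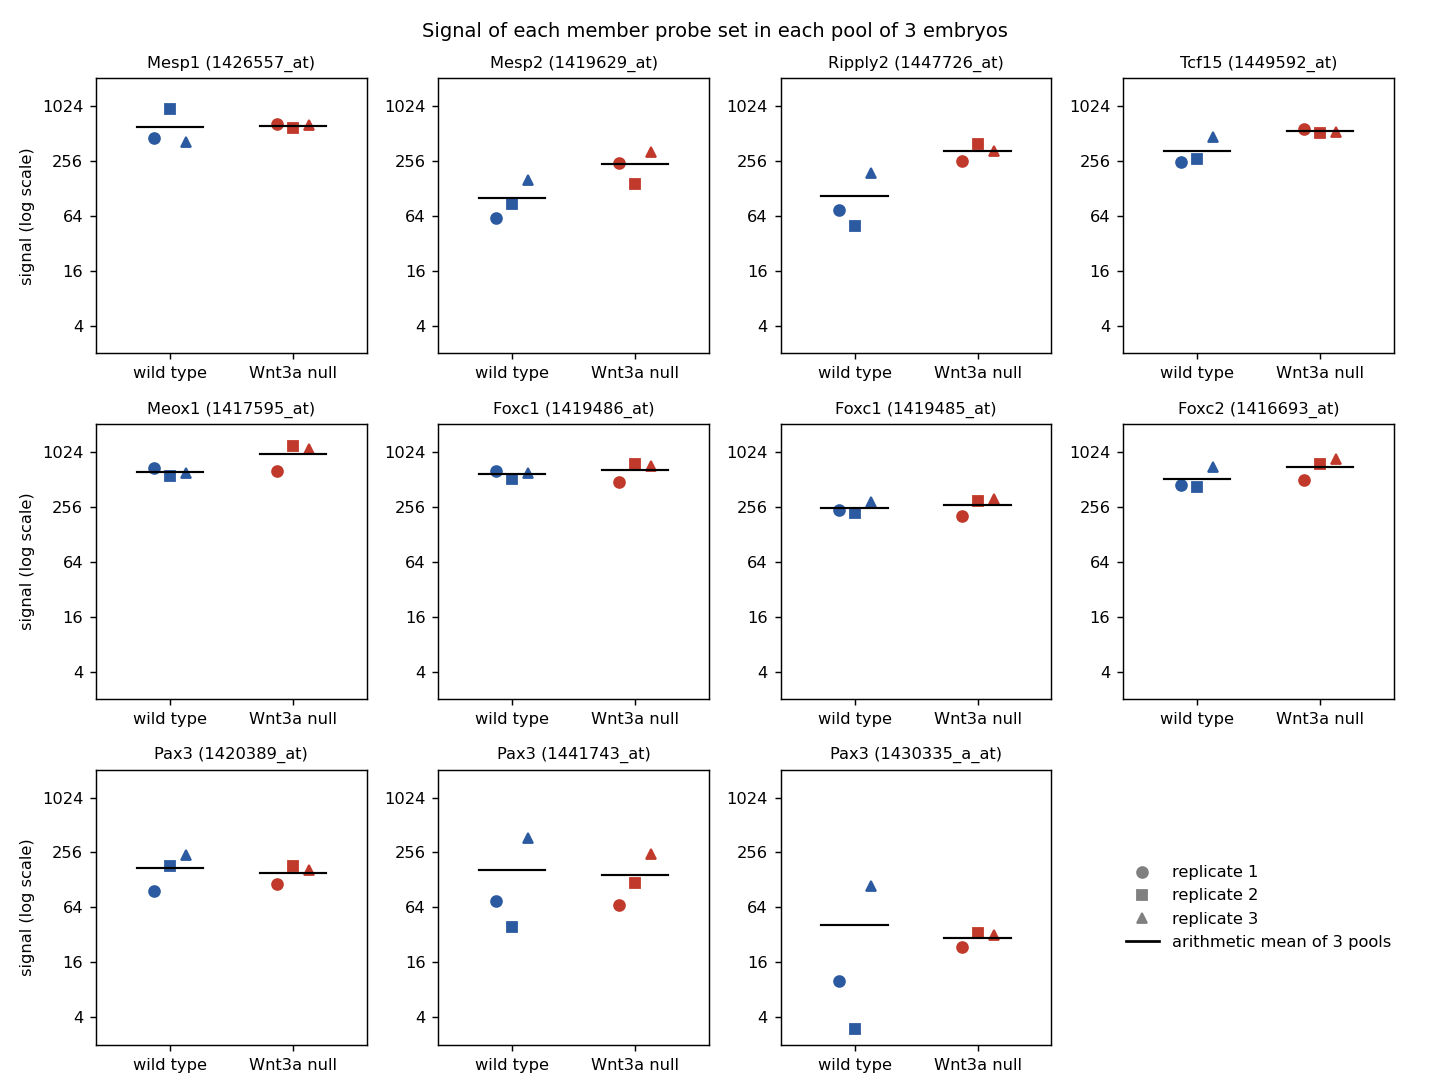
Signal of the 11 probe sets in each of the 6 pools, on a log scale. Blue points are wild-type and red points Wnt3a null pools, the symbol gives the replicate number and the line is the arithmetic mean of 3 pools. All null points of Ripply2 and Tcf15 lie above all wild-type points; in the other 9 panels the groups overlap.

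Mesp1 and Mesp2 encode closely related basic helix-loop-helix factors from neighbouring genes. Mesp1 is active in the first mesoderm leaving the streak, including heart precursors, and Mesp2 sets the segment boundary and the rostral part of each segment. Upstream sequence is shown for this pair of neighbouring genes and for Ripply2, the gene with the largest difference in value. Whether the differences of the 3 genes differ from each other was not tested. The 250 bases before each start site are given from RefSeq (GRCm38.p6), 5′ to 3′ on the gene's strand, at chr7:79793591-79793840 (minus strand) for Mesp1, chr7:79810477-79810726 (plus strand) for Mesp2 and chr9:87015287-87015536 (plus strand) for Ripply2. Of the 8 genes, 4 had an entry in the promoter table. The Mesp1 and Mesp2 start sites lie 17.1 kb apart and point away from each other. Capitals mark matches to the TCF/LEF letters (CTTTGA or CTTTGT, each followed by A or T), the T-box core (which reads TCACACC) and the RBPJ letters (which read GTGGGAA), searched on both strands.
Mesp1: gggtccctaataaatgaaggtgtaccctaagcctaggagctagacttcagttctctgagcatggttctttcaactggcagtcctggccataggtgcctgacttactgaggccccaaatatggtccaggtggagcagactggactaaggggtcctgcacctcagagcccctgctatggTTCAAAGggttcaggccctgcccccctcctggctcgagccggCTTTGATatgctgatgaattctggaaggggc
Mesp2: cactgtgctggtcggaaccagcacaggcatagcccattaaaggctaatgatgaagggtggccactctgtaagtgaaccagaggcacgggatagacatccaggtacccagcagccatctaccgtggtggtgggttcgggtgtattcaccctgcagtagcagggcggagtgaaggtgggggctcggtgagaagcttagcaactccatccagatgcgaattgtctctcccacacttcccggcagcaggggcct
Ripply2: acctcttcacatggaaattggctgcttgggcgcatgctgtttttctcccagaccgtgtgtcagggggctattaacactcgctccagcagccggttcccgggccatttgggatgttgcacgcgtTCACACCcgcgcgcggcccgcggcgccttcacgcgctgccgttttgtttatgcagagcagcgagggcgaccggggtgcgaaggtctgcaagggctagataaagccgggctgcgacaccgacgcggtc
Mesp1 held 2 TCF/LEF matches, TTCAAAG at bases 73 to 67 and CTTTGAT at bases 31 to 25 before the start, where 14.8% of 32851 windows of this length hold at least 1. Ripply2 held 1 T-box match at bases 127 to 121 before the start, where 3.33% of the windows hold 1. The RBPJ letters, found in 5.42% of the windows, were in none of the 3. E-box letters (CANNTG, in 66.2% of the windows, not capitalised) matched at 2 places in Mesp1, 1 in Mesp2 and 2 in Ripply2, and no matches overlapped. These matches describe the letters only; no binding was measured.

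Mesp2 read 245, 142 and 318 in null pools 1, 2 and 3 and 61.0, 86.0 and 157 in wild-type pools 1, 2 and 3. The groups overlapped by a narrow margin, since the highest wild-type pool stood above the lowest null pool. The difference was 1.25 (95% interval 0.06 to 2.44; limma, adjusted p = 0.987). Within replicate numbers the null pool was higher by 2.01, 0.72 and 1.02.

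Mesp1, in contrast, read 643, 588 and 630 in null and 451, 958 and 407 in wild-type pools. The null pools lay close together (SD 0.07 on the log2 scale), and the wild-type pools spread around them (SD 0.67), with pool 2 above and pools 1 and 3 below every null pool. The difference was 0.14 (95% interval -0.79 to 1.08; limma, adjusted p = 1.00), and this interval reaches to nearly the size seen for Mesp2. The sign turned without wild-type pool 1 (-0.01) and without wild-type pool 3 (-0.09). The difference between the 2 genes' differences was not tested.

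Ripply2 encodes a repressor that works by recruiting Groucho/TLE corepressors. It read 253, 393 and 332 in null pools and 74.3, 50.1 and 189 in wild-type pools. The groups did not overlap, with the lowest null pool above wild-type pool 3. The difference of 1.85 had a 95% interval of 0.52 to 3.18 (limma, adjusted p = 0.862). The null pool was higher by 1.77, 2.97 and 0.81 in the 3 replicate numbers, and the smallest of these came from wild-type pool 3, the highest of its group.

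Tcf15, known as paraxis, encodes a basic helix-loop-helix factor needed for somites to become epithelial. Its signal was 573, 522 and 527 in null pools and 246, 270 and 469 in wild-type pools. The null pools were nearly equal (SD 0.07 on the log2 scale, against 0.50 in wild type), and the groups did not overlap. The difference was 0.78 (95% interval 0.02 to 1.54; limma, adjusted p = 0.987), made up of 1.22, 0.95 and 0.17 in the replicate numbers. As with Ripply2, wild-type pool 3 came nearest to the null pools. Without that pool the difference was 1.07 for Tcf15, 2.39 for Ripply2 and 1.62 for Mesp2, and without wild-type pool 1 it was 0.60, 1.72 and 0.94.

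Meox1, a homeobox gene of the early somite and its sclerotome, read 628, 1172 and 1088 in null and 675, 553 and 596 in wild-type pools. Null pools 2 and 3 stood above all wild-type pools, and null pool 1 lay among them. The difference was 0.62 (95% interval -0.15 to 1.38; limma, adjusted p = 1.00). Without null pool 1 it was 0.90.

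Foxc1 and Foxc2 encode forkhead factors that act together in segmentation of the paraxial mesoderm and also in vessels and head mesenchyme. Foxc2 read 499, 750 and 853 in null and 440, 417 and 693 in wild-type pools. The groups overlapped, although the null pool was the higher in all 3 replicate numbers (by 0.18, 0.85 and 0.30). The difference was 0.44 (95% interval -0.38 to 1.26; limma, adjusted p = 1.00). The brighter Foxc1 probe set (1419486_at) read 479, 753 and 715 in null and 626, 521 and 596 in wild-type pools, with null pool 1 the lowest of all 6. The second (1419485_at) read 200, 298 and 309 against 235, 218 and 289. The Foxc1 differences were 0.14 (95% interval -0.51 to 0.78) and 0.10 (-0.56 to 0.77), and the latter was -0.01 without null pool 3. Without both pools of replicate number 2 they were -0.06 and -0.07. The Foxc1 probe sets ranked the null pools alike only in placing pool 1 lowest.

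Pax3, a paired-box gene of the dermomyotome, the dorsal neural tube and the neural crest, was the least uniform of the 8. Its brightest probe set (1420389_at) read 115, 182 and 164 in null and 97.2, 181 and 239 in wild-type pools, a difference of -0.10 (95% interval -1.11 to 0.92; limma, adjusted p = 1.00). The probe set 1441743_at read 68.1, 118 and 246 against 76.2, 38.9 and 373, and 1430335_a_at read 23.3, 33.8 and 32.3 against 10.1, 3.01 and 109. The last lies below the median signal of the arrays, and its wild-type pools differed far more (SD 2.63 on the log2 scale) than the genotypes did (0.98). On all 3 probe sets wild-type pool 3 was the highest of the 6 pools, and the sign of each difference turned without at least 1 pool. Without wild-type pool 3 the differences were 0.19, 1.21 and 2.41, and without wild-type pool 2 they were -0.01, -0.42 and -0.17.

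**Figure D2:**
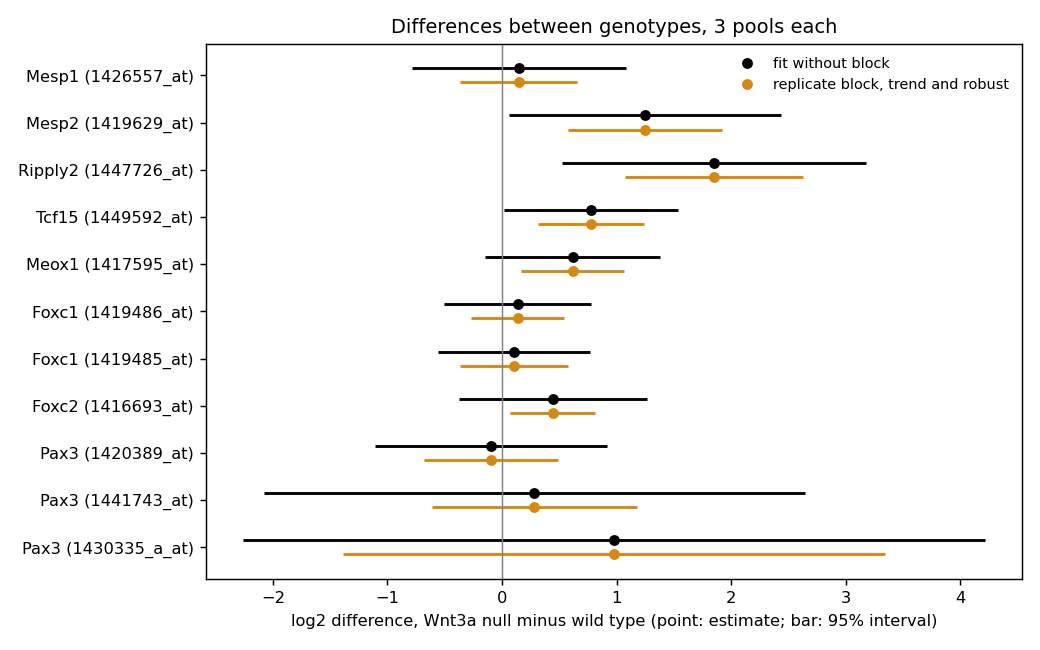
Log2 difference, null minus wild type, of the 11 probe sets, with the estimate as a point and its 95% interval as a bar, without a block (black) and with a block for the replicate number plus trend and robust options (orange). The black intervals of Mesp2, Ripply2 and Tcf15 lie above 0, and the orange ones of Meox1 and Foxc2 do as well; no member passed after adjustment in either fit.

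The groups did not overlap for 2 of the 11 probe sets, Ripply2 and Tcf15, both higher in null. Over all probe sets 9.98% did not overlap, 5.57% higher and 4.41% lower in null pools. Without null pool 1, 6 were higher in null without overlap, with Meox1, Foxc2 and both Foxc1 probe sets added. Of all probe sets 10.2% were then higher without overlap, against 5.57% with all pools. Without wild-type pool 3 the number higher was 5 (10.6% of all were higher), with Mesp2, Foxc2 and 1 Pax3 probe set added. Within replicate numbers, the null pool was higher in all 3 for 4 of the 11 (Mesp2, Ripply2, Tcf15 and Foxc2), against 15% of all probe sets, and lower in all 3 for 0, against 13.7%. With a block for the replicate number plus trend and robust options (which let the variance follow the signal and limit the weight of outlying variances), limma called 22 probe sets (0.0488%), and 0 were members. Its adjusted p for members was lowest for Ripply2 (limma, 0.152), then Mesp2 (0.273) and Tcf15 (0.342). In that fit 5 of 11 had an unadjusted p under 0.05, all higher in null, against 7.67% of all probe sets in either direction and 4.39% higher in null.

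**Figure D3:**
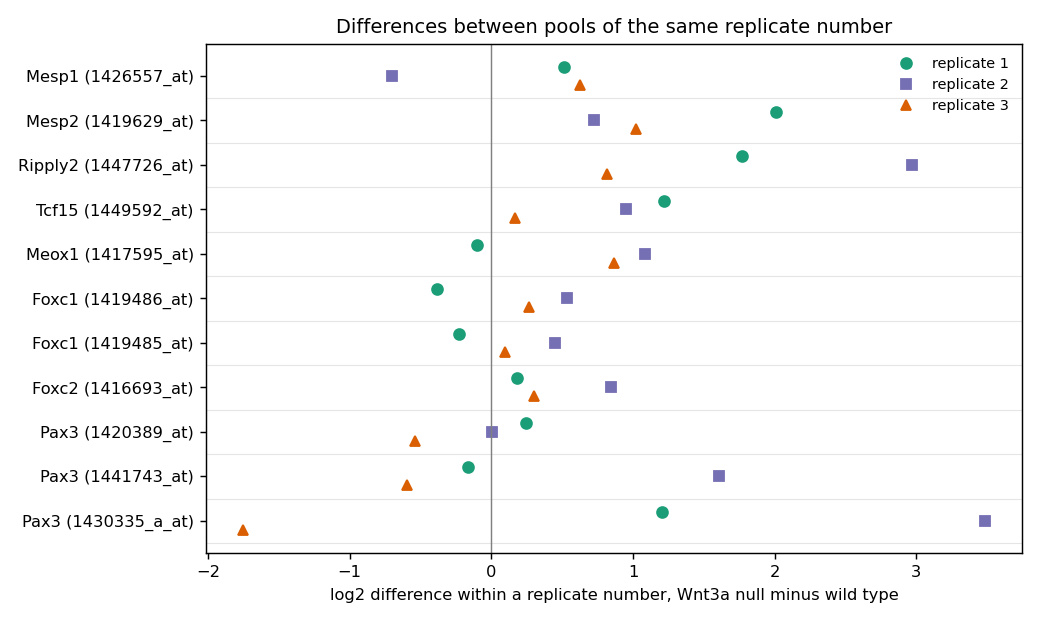
Log2 difference between the null and the wild-type pool of the same replicate number, for each of the 11 probe sets. All 3 points lie right of 0 for Mesp2, Ripply2, Tcf15 and Foxc2, replicate 1 lies left of 0 for Meox1 and Foxc1, and the 3 Pax3 probe sets scatter on both sides.

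Pools of 1 genotype differed from each other across the members in a shared way. Wild-type pool 3 was the highest wild-type pool for 8 of the 11 probe sets (Mesp2, Ripply2, Tcf15, Foxc2, 1 of Foxc1 and all of Pax3), and it was so for 32.5% of all probe sets. Wild-type pool 2 was the lowest wild-type pool for 7 of 11, and it was so for 32.3% of all. These 7 were Ripply2, Meox1, Foxc2, all of Foxc1, and Pax3 1441743_at and 1430335_a_at. Null pool 1 was the lowest null pool for 8 of 11 (Ripply2, Meox1, Foxc2 and all of Foxc1 and Pax3), and it was so for 32.4% of all. Mesp1, Mesp2 and Tcf15 did not follow null pool 1, which was the highest null pool for Mesp1 and Tcf15. The probe sets of 1 gene are not independent. The labels give the stage as a range and not per pool.

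The pattern over the 6 pools was set beside that of 19340 probe sets of other genes above the median signal. The closest in Pearson correlation of log2 signal was Slc25a5 for Mesp1 (0.991), Cnn3 for Mesp2 (0.981), Prl5a1 for Ripply2 (0.995), Chd1 for Tcf15 (0.992), Wdr92 for Meox1 (0.985), Rlf for Foxc1 (0.992), Vrk2 for Foxc2 (0.9955) and Styx for Pax3 (0.991). No member was the closest to another. Correlations over 6 points chosen from so many are high by selection and are a description only.

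Genes listed for the presomitic mesoderm stood on the other side. Of 15 such genes, 14 had a lower mean log2 signal in null pools, against 49.2% of all genes, and the median difference was -0.43, against 0.53 for the 8 members and 0.01 for all genes (the brightest probe set of each). The groups did not overlap for 7, all lower in null (4.56% of all genes): Tbx6, Dll1, Hes7, Notch1, Rbpj, Hes5 and Nrarp. The test called 0 of the 15, as of all genes (0%). Tbx6, the T-box factor that switches on Mesp2, read 704, 652 and 612 in null and 1107, 1120 and 1069 in wild-type pools, a difference of -0.75 (limma, adjusted p = 0.739). Its pools lay far closer within a genotype than those of Mesp2. Hes7, the oscillating repressor of the segmentation clock, had a difference of -0.75 and Hes5, a Notch target, of -1.78 (limma, adjusted p = 0.963 and 0.772). Dll1, the Notch ligand of this tissue, was the 1 gene of the list called with the block and trend and robust options (-0.68; limma, adjusted p = 0.0461, against 0.836 with the block alone and 0.972 without it); it was named after its values were seen. These genes were read in the same 6 pools as the members, and their opposite sign was already known when the list was written.

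Genes of the segment boundary and of somite polarity went both ways. Of 17, 10 were higher (50.8% of all genes were) and 7 lower in value, with a median difference of 0.13, and the test called 0. Efnb2, an ephrin of the caudal segment, read 1478 ± 169 (SD, n = 3) in the null group and 941 ± 237 (SD, n = 3) in wild type, a difference of 0.68. Heyl, a Notch target, had a difference of 0.71 at a low signal (92.9 against 56.7), and Efna1, another ephrin, had -0.94. None of these 3 passed (limma, adjusted p = 0.987, 0.798 and 0.987).

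Genes of later somite parts were mostly dim. Of 17 genes of sclerotome, dermomyotome and early muscle, 11 lay below the median signal, among them Pax1 and Pax9 of the sclerotome and the muscle regulators Myf5 and Myod1. In this list 10 were higher and 7 lower in value, the median difference was 0.21 and the test called 0. The 3 with the smallest p were Foxd1 (-1.44), Pax1 (-1.74) and Twist1 (0.39), the last a basic helix-loop-helix gene of mesenchyme at 308 against 235. All had a limma adjusted p of 1.00.

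Among partners and relatives of the members, 6 of 15 were higher and 9 lower in value (median -0.06), and the test called 0. The E proteins, which pair with Mesp and Tcf15 proteins on DNA, were lower in value: Tcf12 had a difference of -0.12, Tcf3 of -0.18 and Tcf4 of -0.37. Of the Groucho/TLE family that Ripply proteins recruit, Tle3 had -0.22, Tle4 -0.06 and Tle2, below the median signal, -0.32, whereas Tle1 had 0.10. The groups overlapped for Tle1, Tle2 and Tle4. Tcf3, Tcf4 and Tle3 were lower without overlap and in all 3 replicate numbers (4.56% of all genes were lower without overlap), and none passed (limma, adjusted p = 1.00 each). Tcf21 (0.89) and Tbx1 (1.40), factors of head and pharyngeal mesoderm, were higher in value without overlap (5.56% of all genes were so), and neither passed (limma, adjusted p = 0.817 and 0.695).

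**Figure D4:**
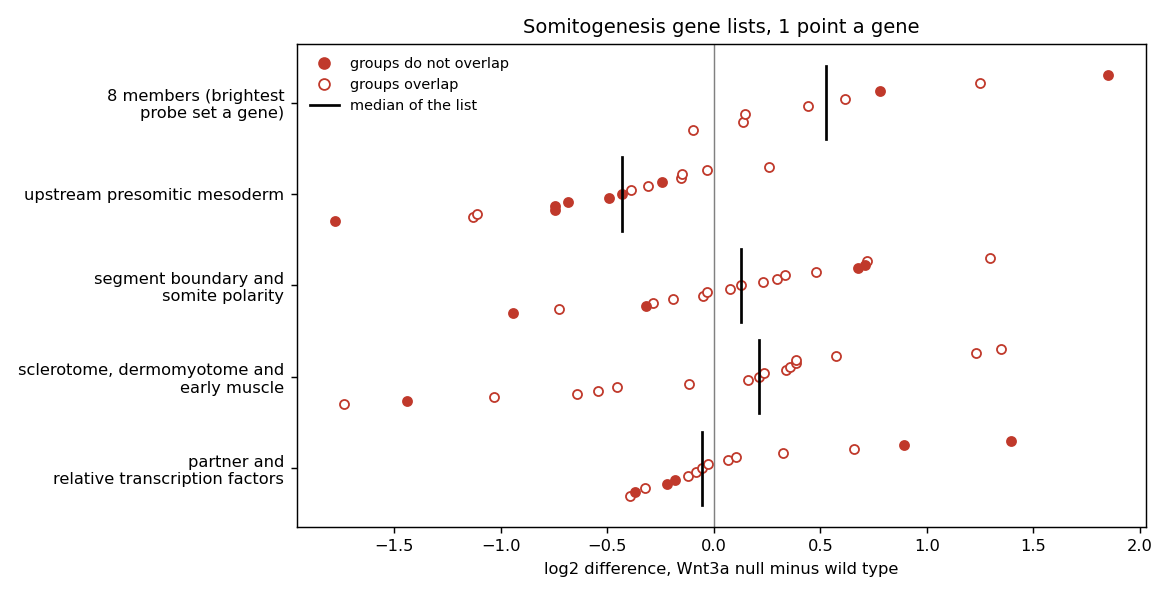
Log2 difference, null minus wild type, of the 8 members and of the genes of 4 related lists, 1 point a gene from its brightest probe set. Filled points mark genes whose groups do not overlap and black bars the median of each list, which is 0.53 for the members and -0.43 for the presomitic mesoderm list.

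Several members are also active outside the somites, and the summed signals of markers of heart and of neural tissue did not overlap between the genotypes, although the test called 0 genes of any tissue list. The summed signal of 14 heart progenitor and heart muscle genes was 5147 to 6106 in the null group and 3178 to 3938 in wild type, and 11 of the 14 were higher in value, with a median difference of 0.54. Nkx2-5, Tbx5, Myl4, Tnnt2 and Myh6 lay below the median signal. The summed signal of 13 neural plate and neural crest genes was 8305 to 8918 against 6196 to 7326. Of these, 8 were higher and 5 lower in value, with a median difference of 0.05. Sox1, Zic1, Pax6, Foxd3 and Neurog2 lay below the median signal. A sum follows its brighter genes: Irx3 averaged 2098 against 794 and Otx2 684 against 92.4, whereas Msx1 averaged 1343 against 1926. The sums overlapped between groups for 8 node and notochord genes (3 higher, median -0.40) and 10 endoderm genes (6 higher, median 0.18). They also overlapped for 10 blood and endothelium genes (9 higher), whose median of 0.60 was the largest of the tissue lists. How often sums of other gene lists do not overlap was not tested. With the block and trend and robust options, Tbx20 of the heart list (1.06; limma, adjusted p = 0.0313) and Irx3 (1.43; 0.00516) and Otx2 (2.55; 0.0373) of the neural list were called higher; without the block and options their adjusted p was 0.788, 0.424 and 0.846. The part of these tissues in the members' differences was not tested.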

How the data were processed

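Arrays of 3 wild-type and 3 Wnt3a null pools (3 embryos each) were compared. Per the labels, 30 to 50 ng of total RNA of each embryo was amplified, and 600 ng of the pooled product was labelled in a further cycle. The deposited table holds 1 linear intensity per probe set and array. The submitters' processing notes name RMA, but the deposited intensities are linear and each array's mean after trimming 2% at each end is 500, which is not the form of RMA output. What step gave these values is not stated in the sources used here. No depth is defined for arrays, and their number limits the precision.

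Of 45101 probe sets, 64 controls were left out. Of the 45037 tested, 34945 had 1 gene symbol, 932 several and 9160 none. Values were turned to log2 with no offset or filter. The genotypes were compared by limma 3.58.1 under R 4.3.3 (lmFit, eBayes, two-sided, Benjamini-Hochberg over all probe sets, threshold 0.05), which was also tested on simulated data. Intervals are 95% intervals of that fit without adjustment. For related gene lists each gene was read from its brightest probe set. Named were all members, the 3 genes of each related list with the smallest p and the closest gene in pattern to each member. Dll1, Tbx20, Irx3, Otx2, Msx1, Nodal, Ttr, Afp, Apoa1, Hnf4a, the E proteins and the Tle genes were named after their values were seen. The same holds for genes named because their groups do not overlap or because they lie below the median signal. Members, lists and tests were chosen with earlier results of these data known. Nothing in the sources used here says how embryos were drawn into pools. The p-values set the difference between genotypes against the spread between these pools only.

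Deviations from the genotype means correlated between pools of the same replicate number by 0.422, 0.454 and 0.282 over 18088 brighter probe sets (mean log2 signal above 7), and by 0.0537, 0.0524 and 0.0338 over all probe sets. Between pools of different numbers the correlations were negative in both sets, from -0.409 to -0.0564 and from -0.0378 to -0.0154. The same-number values passed the bound set for pairing (0.1) over the brighter probe sets and fell short of it over all. All results are from the fit without a block unless the block is named. What a shared number means is not stated in the labels. Figures were drawn with matplotlib 3.10.9 and counts made with pandas 2.3.3 in Python 3.11.15. Alternatives were the block, trend and robust options, a filter, an offset, scaling, array weights, 1 probe set a gene, and leaving out pools or, added later, pairs.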

Additional observations from a re-analysis of the deposited data

How the results depend on the processing

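Members called stayed at 0 under all 18 alternatives, with a lowest adjusted p of 0.152 (limma, Ripply2, replicate block with trend and robust options). Over all probe sets, 22 were called with the replicate block and trend and robust options together, 1 with trend and robust options alone, and 0 under the others, the replicate block alone included. The block changed no member's call. Ripply2 (1.29 to 2.39), Mesp2 (0.87 to 1.62), Tcf15 (0.56 to 1.08), Meox1 (0.38 to 0.98) and Foxc2 (0.24 to 0.67) kept their sign under all 18. The sign turned for the other members, and the cause was not tested. When 1 pool was left out, Mesp1 ran from -0.0855 to 0.53, Foxc1 1419485_at from -0.0094 to 0.30, and the Pax3 probe sets 1420389_at from -0.46 to 0.19, 1441743_at from -0.42 to 1.21 and 1430335_a_at from -0.17 to 2.41. Without pair 1 Mesp1 was -0.0381. Without pair 2 Foxc1 1419486_at was -0.0606, Foxc1 1419485_at -0.0675, Pax3 1441743_at -0.3801 and Pax3 1430335_a_at -0.2718. Without pair 3 Mesp1 was -0.0974 and Pax3 1420389_at 0.1264. With log2(signal + 50) Pax3 1430335_a_at was -0.0002, and with median centring Rlf was -0.0067. Without 1 pool Slc25a5 ran from -0.0069 to 0.1995, Rlf from -0.0075 to 0.1439, Styx from -0.1384 to 0.0364 and Wnt3a from -0.1836 to 0.0227; Slc25a5 was -0.0254 and Styx 0.0107 without pair 3, and Rlf -0.0422 and Wnt3a 0.0859 without pair 2. The count of probe sets higher without overlap was 2 to 6 when 1 pool was left out, and 5, 6 and 4 without pairs 3, 1 and 2 (16.2%, 15.3% and 18.5% of all probe sets); fewer pools make separation more frequent. The count with a higher mean was 8 to 11 without 1 pool and 6 without pair 2 (53.1% of all). Leaving out pairs was chosen after seeing the data.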
